A study of Drosophila melanogaster with 9 samples.

Results

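The sodium pump (Na+/K+-ATPase) pushes sodium out of animal cells and draws potassium in at the cost of ATP. It is built from a catalytic alpha subunit, which in Drosophila is mainly encoded by *Atpalpha*, and a beta subunit, a glycoprotein that crosses the membrane a single time and is needed to fold the alpha subunit and bring it to the cell surface. The fly's Nervana genes *nrv1*, *nrv2* and *nrv3* encode beta subunits. They owe their name to the nervous system, whose glycoproteins, Nervana proteins among them, are recognised by antibodies against horseradish peroxidase (HRP). *nrv2* is known for its expression in glia, where its regulatory sequence is widely used to drive transgenes, and in epithelia, and *nrv3* for its expression in neurons. Apart from pumping ions, Atpalpha and Nrv2 are components of septate junctions, which seal insect epithelia and the glial blood-brain barrier.

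These genes were followed as mRNA on 9 Affymetrix Drosophila Genome 2.0 arrays, which read each transcript with a set of short probes near its 3′ end. The members were chosen by name, as probe sets whose only gene symbol in the platform annotation was *nrv1*, *nrv2*, *nrv3* or *Atpalpha*, and the choice was made from their values in Ph RNAi and Mock RNAi cells, so those values are given as a description with no test. Of the 4 genes, 3 had a named probe set, with 1 each, out of 18768 probe sets and 11982 named genes in all. The identifiers of the *nrv2* and *nrv3* probe sets carry the suffix s_at, which marks probes shared by several transcripts, and the RefSeq annotation lists 6 transcripts for *nrv2*, 4 for *nrv3* and 2 for *nrv1*, so the values do not separate isoforms. *Atpalpha* was not analysed here, and the pump is seen only through its beta subunits.

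There were 3 groups of 3 arrays. Ph RNAi denotes BG3 cells treated for 5 days with double-stranded RNA, 10 µg per well, against sequence common to *ph-p* and *ph-d*, the genes for Polyhomeotic (Ph), which belongs to the Polycomb repressive complex PRC1. Mock RNAi denotes BG3 cells for which no dsRNA is stated, so an effect of dsRNA itself cannot be told apart from one of Ph depletion. BG3 is an established male line from the larval central nervous system, grown in Schneider's medium with fetal calf serum and insulin. The remaining group was wing imaginal discs from *yw* larvae late in their last instar, without separation of the sexes, with 12 to 15 discs in each replicate, and 200 ng of RNA was labelled for every array. The RNAi comparison addresses which transcripts differ between Ph RNAi and Mock RNAi, and the discs give the ranks of the same transcripts in a developing epithelium.

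Values are log2 expression made with GCRMA, which subtracts background estimated from probe sequence. BG3 values gathered around a lower peak at 1.85 and an upper peak at 8.86, and 64.4% of Mock RNAi and 64.1% of Ph RNAi values lay below 4, in the lower band. A gene in that band cannot fall much further, and a fold change that reaches into it depends on the background correction. Between arrays of a group Pearson's r was 0.992 to 0.997 (Mock RNAi), 0.990 to 0.994 (Ph RNAi) and 0.997 to 0.998 (wing disc). The median value was 2.21 to 2.23 on the BG3 arrays and 0.827 to 0.842 on the wing disc arrays, so the discs were taken as normalized separately and are described only by rank within each array. The difference between 3′ and 5′ probe sets of the actin control, a sign of RNA length, was 1.73 to 2.26 on the control arrays, 1.38 to 2.06 on those of Ph RNAi and 3.12 to 3.34 on those of the discs, and its part in the results was not tested. *ph-p* and *ph-d* had no named probe set, so the depletion was not checked on these arrays.

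Transcripts of *nrv1* and *nrv2* were more abundant in all 3 Ph RNAi samples than in any Mock RNAi sample, and those of *nrv3* were less abundant. The adjacent genes *nrv1* and *nrv2*, the latter known from glia and epithelia, thus lay on one side of Mock RNAi and the neuronal gene on the other. On the linear scale the differences were 2.15-fold higher for *nrv1*, 3.00-fold higher for *nrv2* and 3.27-fold lower for *nrv3*.

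The *nrv1* probe set read 12.50, 13.11 and 12.97 on the log2 scale in Mock RNAi replicates 1, 2 and 3. It read 14.04, 13.82 and 14.03 in the Ph RNAi replicates. The groups did not overlap: 0.71 on the log2 scale lay between the highest Mock RNAi and the lowest Ph RNAi array, and Mock RNAi replicate 1 was the lowest of all. The means were 12.86 ± 0.32 (SD, n = 3) in Mock RNAi and 13.96 ± 0.12 (SD, n = 3) in Ph RNAi, a difference of 1.10 ± 0.15 (SE). *nrv1* was already one of the brightest probe sets in Mock RNAi, at percentiles 98.2 to 98.9 of its arrays, and stood at percentiles 99.4 to 99.5 in Ph RNAi. Between 99 and 122 probe sets were brighter on a Ph RNAi array, against 200 to 342 on a Mock RNAi array.

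The *nrv2* probe set read 10.44, 11.39 and 11.48 in Mock RNAi and 12.58, 12.80 and 12.68 in Ph RNAi. Again the groups lay apart, here by 1.10 on the log2 scale, and again Mock RNAi replicate 1 was the lowest array, about 1 log2 unit under the other Mock RNAi arrays. The means were 11.10 ± 0.57 (SD, n = 3) and 12.69 ± 0.11 (SD, n = 3), with a difference of 1.59 ± 0.24 (SE). Without Mock RNAi replicate 1 the difference was 1.26 for *nrv2* and 0.92 for *nrv1*. Within the arrays, *nrv2* stood at percentiles 92.7 to 96.0 in Mock RNAi and 98.3 to 98.5 in Ph RNAi, a narrow range for the treated cells beside that of the controls.

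*nrv3*, the neuronal beta subunit gene, was read at a far weaker signal. Its values were 3.65, 5.51 and 5.40 in Mock RNAi and 3.31, 3.28 and 2.86 in Ph RNAi. Mock RNAi replicate 1 and all Ph RNAi arrays thus lay under 4, in the lower band, and 0.35 on the log2 scale separated the lowest Mock RNAi array from the highest Ph RNAi array. The means were 4.86 ± 1.04 (SD, n = 3) and 3.15 ± 0.25 (SD, n = 3), and the difference was -1.71 ± 0.43 (SE). Without Mock RNAi replicate 1 it was -2.31, and without Mock RNAi replicate 2 it was -1.38. The size of this difference depends on how GCRMA treats signals near background, whereas *nrv1* and *nrv2* were well above the lower band on every BG3 array.

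**Figure D1:**
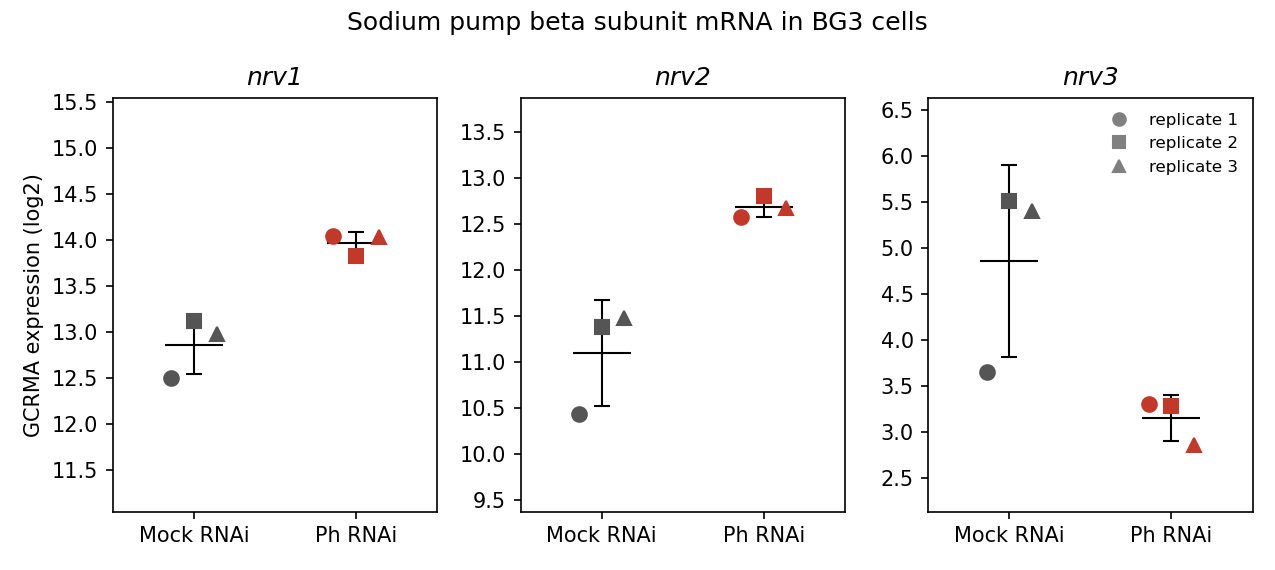
GCRMA expression (log2, y axis) of *nrv1*, *nrv2* and *nrv3* in Mock RNAi (grey) and Ph RNAi (red) BG3 cells, 1 point per array with its replicate number as the marker shape; the horizontal line is the mean and the bars are the SD of 3 arrays. Each y axis has its own range. The Ph RNAi arrays lie above the Mock RNAi arrays for *nrv1* and *nrv2* and below them for *nrv3*, and Mock RNAi replicate 1 is the lowest Mock RNAi array in each panel.

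Whether called or not, 501 probe sets had a larger positive difference than *nrv1* and 323 a larger one than *nrv2*, and 68 had a more negative difference than *nrv3*. With limma and Benjamini-Hochberg adjustment over all probe sets, 676 of 18768 (3.6%) passed an adjusted p under 0.05, 454 higher (2.42%) and 222 lower (1.18%) in Ph RNAi. The arrays of the groups did not overlap for 20.4% of all probe sets and for all 3 Nervana genes, and nothing is read from that count, because these values chose the genes. Mock RNAi replicate 1 gave the lowest Mock RNAi value for all 3 genes and for 38.8% of all probe sets. As the samples are bulk RNA, fewer cells of a type and less RNA per cell cannot be told apart.

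The 3 genes differed in how closely they varied together. Over the 6 BG3 arrays Pearson's r was 0.97 between *nrv1* and *nrv2*, -0.59 between *nrv1* and *nrv3* and -0.53 between *nrv2* and *nrv3*. These coefficients describe 6 arrays that fall into 2 groups and share their libraries, so they mostly restate the group differences. Because Mock RNAi replicate 1 was low for all 3 genes, it drew *nrv3* towards its Ph RNAi values and *nrv1* and *nrv2* away from theirs. The difference of *nrv1* was 2.81 above that of *nrv3* on the log2 scale, and that of *nrv2* was 3.29 above it.

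In wing discs *nrv1* and *nrv2* ranked high and *nrv3* near the bottom. *nrv1* stood at percentiles 94.3, 95.6 and 94.5 of the 3 disc arrays, below every BG3 array. *nrv2* stood at 93.5, 95.2 and 93.9, within the range of the Mock RNAi arrays and below the Ph RNAi arrays. *nrv3* stood at 17.4, 8.12 and 26.4, near the bottom of the scale, whereas in BG3 cells it was at 63.9 to 68.5 in Mock RNAi and 59.9 to 61.9 in Ph RNAi. Since 65.8% of disc values and 64.1% to 64.4% of BG3 values lay below 4, the *nrv3* ranks in discs, Ph RNAi and Mock RNAi replicate 1 are ranks within the lower band, and nothing is read from their order. The mean disc percentiles were 94.8 ± 0.709, 94.2 ± 0.879 and 17.3 ± 9.14 (SD, n = 3). The disc label was borne out by *nub*, *vg* and *ap*, regulators of wing development, which stood between percentiles 94.1 and 98.7, while *ptc*, the Hedgehog receptor gene, was at 53.9 to 55.3. Transcripts of the fat body, the larval storage organ, differed between all disc arrays, with summed log2 levels over 4 markers of 9.83, 6.35 and 3.55 in replicates 1, 2 and 3. Without disc replicate 1, 2 or 3 in turn the mean percentiles were 95.1, 94.4 and 95.0 for *nrv1*, 94.5, 93.7 and 94.3 for *nrv2* and 17.3, 21.9 and 12.8 for *nrv3*.

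**Figure D2:**
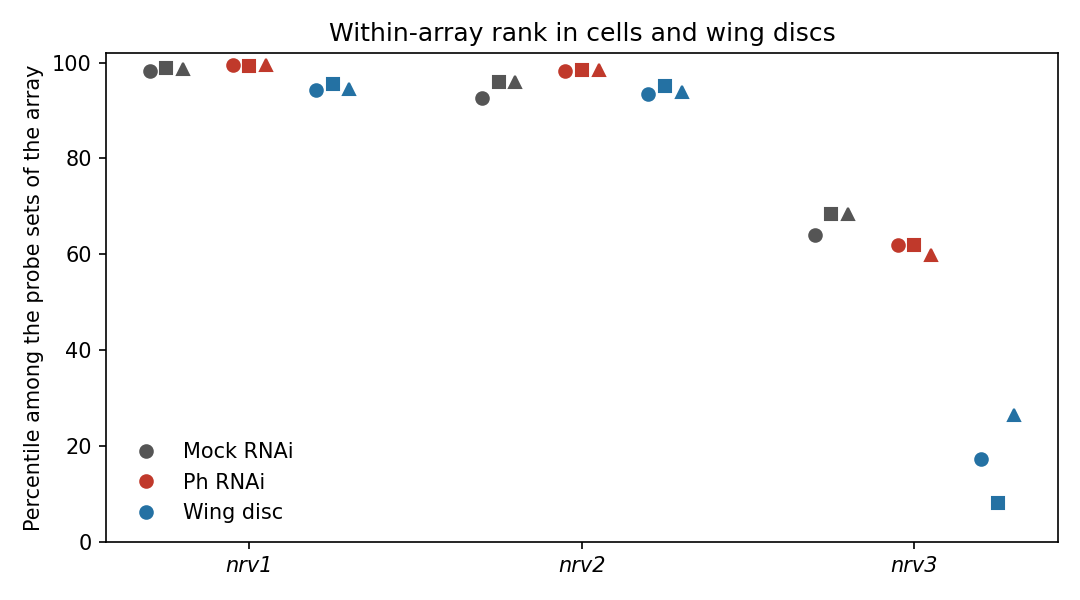
Percentile of the *nrv1*, *nrv2* and *nrv3* probe sets among all 18768 probe sets of each array (y axis, 0 to 100) for Mock RNAi (grey), Ph RNAi (red) and wing disc (blue), with circles, squares and triangles for replicates 1, 2 and 3. *nrv1* and *nrv2* stand at percentile 92.7 or higher on every array, whereas *nrv3* lies between 59.9 and 68.5 in BG3 cells and between 8.12 and 26.4 in discs, where its values lie in the lower band.

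*nrv1* and *nrv2* are adjacent on chromosome arm 2L in the RefSeq annotation, with no gene that has a named probe set between them. The genes on the outer sides of the pair did not share their difference. *CG17378*, next to *nrv1*, read 2.12 ± 0.15 in Mock RNAi and 1.98 ± 0.12 in Ph RNAi, and *CG17376*, next to *nrv2*, read 2.29 ± 0.07 and 2.48 ± 0.21 (SD, n = 3). Neither passed the test (limma, adjusted p = 0.71 and 0.671), and both lay in the lower band. *nrv3*, elsewhere on the same arm, lies between *CG8665*, which differed by 0.12 ± 0.13 (SE, adjusted p = 0.77), and *Lamp1*, a lysosomal membrane protein gene, which differed by 0.20 ± 0.09 (SE, adjusted p = 0.348) at a high mean of 14.35 in Mock RNAi. For *Atpalpha*, on arm 3R, the nearest measured neighbours were *hdly*, at 11.62 ± 0.32 and 11.66 ± 0.23, and *Calx*, a sodium/calcium exchanger gene that the pump's gradient drives, at 1.82 ± 0.12 and 1.76 ± 0.18 (SD, n = 3). Neither difference passed the test (adjusted p = 0.966 and 0.893), and neither kept its sign when single arrays were left out.

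The genes whose pattern over the 6 BG3 arrays was most like that of each Nervana gene were found by Pearson's r among 3703 or 3704 named genes with a mean of at least 5 in either BG3 group. Genes whose symbol is only an annotation number, beginning with CG or CR, were left out of this search. This measure ignores the size of a difference. It favours genes with the same group difference or the same spread within a group, so the matches are a description with no test. The limma p-values beside them only mark which genes were called. For *nrv1* they were *spartin* (r = 0.99), *tmod*, which encodes the actin-capping tropomodulin, and *capu*, which encodes an actin-nucleating formin (both r = 0.98), with differences of 0.68, 0.82 and 1.29 on the log2 scale. Only *capu* of these passed the limma test (adjusted p = 0.229, 0.0571 and 0.036). Its call was lost without any Mock RNAi replicate or Ph RNAi replicate 1 or 3 (0.076 to 0.129). For *nrv2* they were the glutathione transferase gene *GstE3*, the dihydroceramide desaturase gene *ifc* and *Timp*, which encodes an inhibitor of metalloproteases, each with r above 0.99 and with differences of 2.82, 1.01 and 5.65. *Timp* had the largest of these, from a mean of 4.84 to 10.49, and each of the *nrv2* matches passed the limma test (adjusted p of 0.00226 to 0.00986). For *nrv3* they were *her* (r = 0.99), *Fsn*, an F-box protein gene (r = 0.99), and *Pdp1*, a bZIP transcription factor gene (r = 0.99), with differences of -0.37, -0.27 and -1.20. None of these passed the limma test (adjusted p = 0.577, 0.618 and 0.107). Without Mock RNAi replicate 1, the array that was low for *nrv3*, the differences were -0.54, -0.38 and -1.59.

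Septate junction genes, whose products share this structure with Nrv2 and Atpalpha, were listed beside the pump. Of 22 measured out of 23, 4 rose and none fell by the limma test (adjusted p under 0.05, against 2.42% of all probe sets higher and 1.18% lower). An unadjusted p under 0.05 was reached by 8, and 18 had a higher mean in Ph RNAi. The median difference was 0.37 on the log2 scale, beside -0.02 over all probe sets, and the range was -0.30 to 3.36. The shares of all probe sets with an unadjusted p under 0.05 and with a higher mean in Ph RNAi were not counted. Nothing is therefore read from counts of either kind, here or in the lists below.

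The largest difference in that list belonged to *vari*, which encodes a membrane-associated scaffold of the junction. It read 5.24, 5.81 and 6.27 in Mock RNAi and 8.48, 10.01 and 8.91 in Ph RNAi, a rise of 3.36 ± 0.40 (SE, 10.3-fold, adjusted p = 0.000612). *Nrg*, the gene of the L1-type adhesion protein neuroglian, read 5.90, 7.13 and 6.42 in Mock RNAi and 9.12, 9.01 and 9.77 in Ph RNAi, a rise of 2.82 ± 0.34 (SE, 7.05-fold, adjusted p = 0.000675). For both genes the lowest Ph RNAi array was far above the highest Mock RNAi array. *Lac*, which encodes the immunoglobulin-domain adhesion protein Lachesin, rose by 1.03 ± 0.19 (SE, adjusted p = 0.00964), from 10.53 to 10.89 over the Mock RNAi arrays to 11.46 to 12.03 over the Ph RNAi arrays. *cora*, the gene of the band 4.1 protein Coracle, rose by 1.29 ± 0.28 (SE, adjusted p = 0.0288). Its call was lost, at adjusted p values of 0.059 to 0.153, without Mock RNAi replicate 1, 2 or 3 or Ph RNAi replicate 1 or 3.

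Other junction genes were not called. *M6* differed by 1.28 ± 0.33 (SE), with no overlap between the groups, and missed the threshold (limma, adjusted p = 0.0685). *Gli*, which encodes the tricellular junction protein Gliotactin, read 6.34, 8.41 and 7.37 in Mock RNAi and 8.75, 9.62 and 9.09 in Ph RNAi, a difference of 1.78 ± 0.45 (SE) that missed the threshold (limma, adjusted p = 0.0594). The core members *Nrx-IV* and *Cont* differed by 0.55 ± 0.31 and 0.48 ± 0.26 (SE), within the spread of their arrays (adjusted p = 0.477 and 0.46). The claudin genes also did not pass, with *kune* at -0.30 ± 0.21, *pck* at -0.23 ± 0.24 and *sinu* at 0.47 ± 0.24 (SE). The calls in this list were thus all rises, and most of its genes were not called. In discs, where septate junctions are a regular part of the epithelium, *Lac*, *Nrg* and *cora* ranked at percentiles 98.6 to 98.9, 98.0 to 98.4 and 95.1 to 95.8, and *vari* at 85.0 to 86.9.

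**Figure D3:**
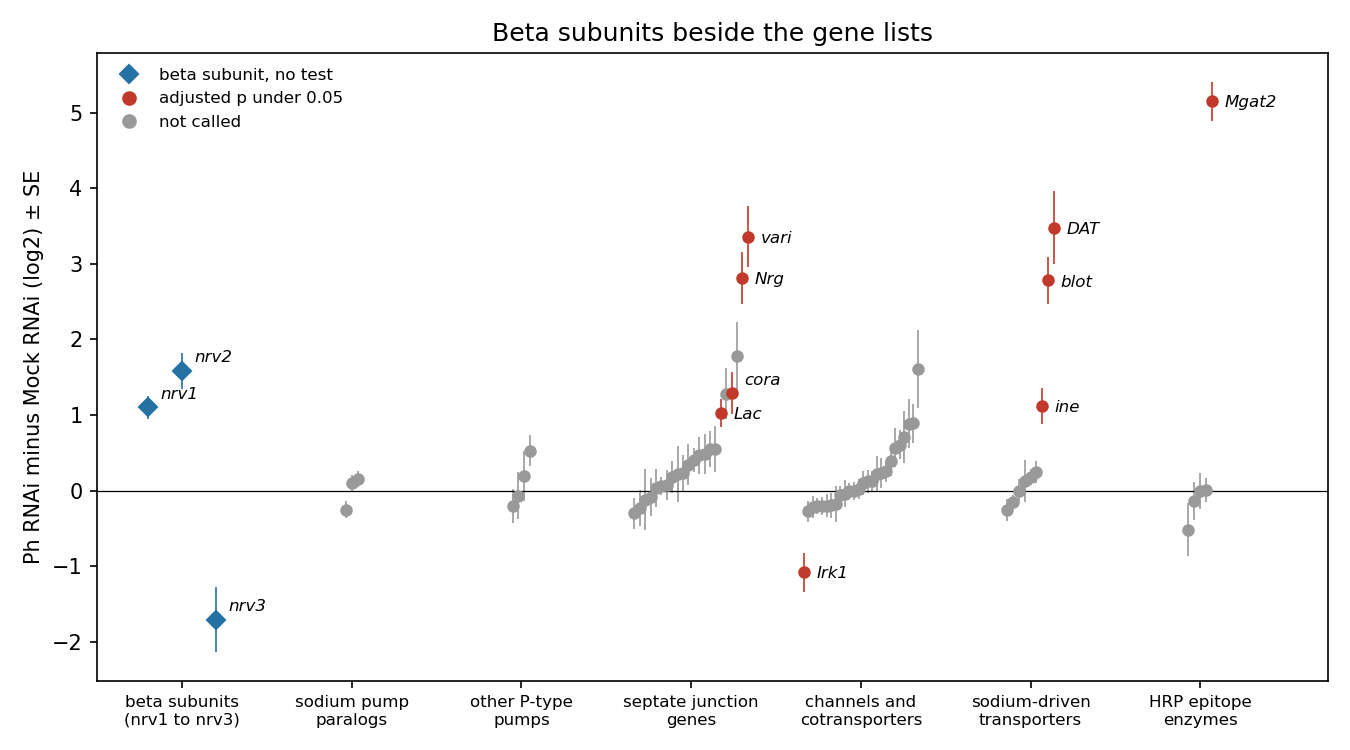
Difference between Ph RNAi and Mock RNAi (log2, y axis, bars are the SE of limma) for *nrv1*, *nrv2* and *nrv3* (blue diamonds) and for each measured gene of 6 lists (circles, red where the adjusted p was under 0.05 and grey where not), in order of their difference. The called genes above 0 are *vari*, *Nrg*, *cora*, *Lac*, *DAT*, *blot*, *ine* and *Mgat2*, and *Irk1* is the called gene below 0.

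None of the pump's measured relatives was called, beside 3.6% of all probe sets, and nothing is read from the lack of calls in such short lists. Of 5 further genes of the pump subunit families, 3 were measured, and all lay under 4 in both groups. *CG3701* differed by -0.25 ± 0.11 (SE, unadjusted p = 0.0448, adjusted p = 0.338) and *CG5250* by 0.16 ± 0.11 (SE, adjusted p = 0.585). Of the other pumps of the P-type family, which share the alpha subunit's reaction cycle, 4 of 5 were measured and none was called by limma, with 1 at an unadjusted p under 0.05. This was *PMCA*, the calcium pump of the plasma membrane, which read 10.15, 10.50 and 10.57 in Mock RNAi and 10.63, 11.28 and 10.91 in Ph RNAi, a difference of 0.53 ± 0.21 (SE, adjusted p = 0.274). *ATP7*, a copper pump gene, differed by -0.20 ± 0.22 (SE, adjusted p = 0.769). The median differences of these lists were 0.09 and 0.06, beside -0.02 over all probe sets.

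Among ion channels and cotransporters, which dissipate or use the gradients that the pump builds, 26 of 27 were measured. Of these, 21 had a mean under 4 in both groups, among them *para*, the voltage-gated sodium channel gene, at 2.37 to 2.70 in Mock RNAi and 2.24 to 2.35 in Ph RNAi. None rose and 1 fell by the limma test (1.18% of all probe sets fell), and the median difference was 0.06. An unadjusted p under 0.05 was reached by 5. Of these, *Irk1* had a lower mean in Ph RNAi, and *Irk2*, *Nhe1*, *kcc* and *zyd* had a higher mean. The gene that fell was *Irk1*, which encodes an inwardly rectifying potassium channel. It read 8.42, 9.09 and 8.83 in Mock RNAi and 7.86, 7.52 and 7.72 in Ph RNAi, a difference of -1.08 ± 0.26 (SE, 2.11-fold lower, adjusted p = 0.046). The arrays of the groups did not overlap, but the call was lost under quantile normalization (adjusted p = 0.0513) and with a replicate block (adjusted p = 0.0548). It was also lost without Mock RNAi replicate 2 or 3 or any Ph RNAi replicate (adjusted p of 0.0866 to 0.214). The sodium/proton exchanger gene *Nhe1* and the potassium/chloride cotransporter gene *kcc* differed by 0.89 ± 0.26 and 0.89 ± 0.32 (SE) without passing (adjusted p = 0.109 and 0.213).

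Transporters that are driven by the sodium gradient take up transmitters and osmolytes, and 9 of 11 were measured. Of these, 3 rose and none fell (limma, adjusted p under 0.05, against 2.42% higher and 1.18% lower over all probe sets), with a median difference of 0.18. *DAT*, the dopamine transporter gene, read 2.95, 2.40 and 2.86 in Mock RNAi and 5.86, 7.56 and 5.23 in Ph RNAi, a rise of 3.48 ± 0.49 (SE, 11.2-fold, adjusted p = 0.00171). *blot*, a member of the same transporter family, rose from 3.27 ± 0.25 to 6.05 ± 0.57 (SD, n = 3; adjusted p = 0.000359). Both came up out of the lower band, so these folds depend on the background correction. *ine*, also of that family, rose by 1.12 ± 0.23 (SE, adjusted p = 0.0225) but stayed under 4 in both groups, and its call was lost without the variance trend (adjusted p = 0.0536) and without Mock RNAi replicate 2 or 3 or Ph RNAi replicate 1 or 3 (0.0508 to 0.12). The other genes of the list ranged from -0.26 for *Gat*, the GABA transporter gene, to 0.24 for *List*. In discs *blot* ranked at percentiles 96.0 to 96.3 and *DAT* at 42.6 to 55.9.

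The Nervana proteins carry the N-glycans seen by anti-HRP antibodies, and 5 of 6 genes listed for this epitope were measured. The gene not measured was *FucTA*, so the values do not cover the whole synthesis of the epitope. Whether the epitope itself differed was not tested. The median difference was 0.00, and 1 gene rose and none fell, beside the same shares over all probe sets (2.42% and 1.18%). *Mgat2*, which encodes an N-acetylglucosaminyltransferase of complex N-glycan assembly, read 3.47, 3.54 and 3.27 in Mock RNAi and 8.40, 8.85 and 8.49 in Ph RNAi, a rise of 5.15 ± 0.26 (SE, 35.6-fold, limma adjusted p = 7.02e-07). Its Mock RNAi values lay in the lower band and its Ph RNAi values near the upper peak. The other measured genes of the list were not called, with *Mgat1* at -0.52 ± 0.35, *nac*, a GDP-fucose transporter gene, at -0.14 ± 0.25, and *fdl*, a hexosaminidase gene that trims the glycan, at 0.00 ± 0.24 (SE).

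Markers of the cell types in which the Nervana genes are known were read from the same arrays. Of 15 glial markers, 14 were measured, and 2 rose and 1 fell by the limma test, against 2.42% and 1.18% of all probe sets, while 10 had an unadjusted p under 0.05. Of these 10, *drpr* and *wrapper* had a lower mean in Ph RNAi and the others a higher mean. *repo*, the transcription factor gene that marks glia outside the midline, read 3.08, 2.60 and 3.69 in Mock RNAi and 10.25, 10.24 and 10.19 in Ph RNAi (limma, adjusted p = 4.67e-07). *loco*, a glial regulator of G-protein signalling, rose by 1.34 ± 0.18 (SE, adjusted p = 0.00117), and *drpr*, the engulfment receptor gene, fell by 0.83 on the log2 scale (adjusted p = 0.0484), a call lost without Ph RNAi replicate 1 or 2 or any Mock RNAi replicate (0.101 to 0.152), under quantile normalization (0.057) and with no variance trend (0.101). Uncalled markers ranged from -0.89 for *wrapper* to 2.78 for *alrm* (limma, adjusted p = 0.119 and 0.0699), and *moody* differed by -0.09 ± 0.33 (SE). Several glial markers were already bright in Mock RNAi, with means of 12.05 for *drpr*, 10.63 for *htl*, 10.22 for *moody* and 10.14 for *loco*. The glial transcription factor genes *gcm* and *gcm2* stayed under 4 on every BG3 array. The summed log2 level of the glial markers was 13.0 to 13.1 in Mock RNAi and 13.3 to 13.6 in Ph RNAi, with a median difference of 0.41.

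Of 20 neuronal markers, 18 were measured and none was called by limma, beside 3.6% of all probe sets, so nothing is read from the lack of calls. 1 marker, *Snap25*, had an unadjusted p under 0.05, at -0.71 ± 0.23 (SE, adjusted p = 0.157). Of the 18, 16 had a mean under 4 in both groups, including the synaptic genes *nSyb* (1.94 to 2.24 over the BG3 arrays) and *brp* (2.15 to 2.44). *elav*, the pan-neuronal RNA-binding protein gene, read 6.05 to 7.07 in Mock RNAi and 7.05 to 7.83 in Ph RNAi (adjusted p = 0.389). The summed neuronal level was 7.23 to 8.11 in Mock RNAi and 7.83 to 8.38 in Ph RNAi. *nrv3* was thus read from cells in which most defining markers of mature neurons were near the bottom of the scale in both groups, and its label as a neuronal subunit comes from its known expression rather than from these arrays.

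Markers of other lineages included a few called genes, all higher, beside 2.42% of all probe sets. Among 10 hemocyte markers 1 was called, *He*, with a difference of 3.19 ± 0.67 (SE, adjusted p = 0.024) that was largest in Ph RNAi replicate 3, a call lost without the variance trend (0.0986) and without any Mock RNAi replicate or Ph RNAi replicate 2 (0.0559 to 0.0777). Of the 10, 6 had a higher mean in Ph RNAi. Uncalled genes ranged from -0.72 for *eater* to 3.49 for *PPO1* (limma, adjusted p = 0.365 and 0.212), which read 2.73, 4.44 and 9.53 in Ph RNAi. The brightest, *srp* and *crq*, had means of 10.77 and 10.63 in Mock RNAi and 10.07 and 10.67 in Ph RNAi. The summed level of the hemocyte list was 11.4 to 12.4 in Mock RNAi and 11.4 to 12.2 in Ph RNAi. Of 2 measured muscle precursor markers 1 was called, the mesodermal regulator *twi*, at 1.71 ± 0.22 (SE, adjusted p = 0.000988), while *sns* differed by -0.13 ± 0.12. Of 4 tracheal markers 1 was called, the regulator *vvl*, at 1.26 ± 0.16 (SE, adjusted p = 0.000815), while *serp*, *btl* and *verm* ranged from -0.19 to 0.12. Of 4 wing disc markers 1 was called, *nub*, at 3.09 ± 0.33 (SE, adjusted p = 0.000254), while *ptc* differed by -0.09 ± 0.14 and *ap* and *vg* by 0.58 ± 0.20 and 0.77 ± 0.22 (adjusted p = 0.19 and 0.101). None of 4 measured fat body markers was called by limma, and none reached an unadjusted p under 0.05. The summed level of 2 muscle precursor markers was 3.05 to 3.39 in Mock RNAi and 4.10 to 4.57 in Ph RNAi, that of 4 tracheal markers 3.93 to 3.97 and 4.31 to 4.51, and that of 4 wing disc markers 3.98 to 4.05 and 5.08 to 6.15. *He*, *twi*, *vvl* and *nub* had Mock RNAi means of 1.84, 2.33, 2.13 and 1.86, in the lower band, and *vvl* stayed under 4 on every BG3 array. The size of these rises depends on the background correction. The part of the marker changes in the Nervana values was not tested.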

How the data were processed

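Messenger RNA was measured on 9 Affymetrix arrays, 3 each of Mock RNAi BG3 cells, Ph RNAi BG3 cells and wing discs, grouped by their titles. The deposited log2 values were made by the authors with GCRMA according to the submitters' processing notes; its version and settings are not given in the sources used here. Of 18952 rows, 183 control rows and 1 blank row were left out, which left 18768 probe sets. The platform annotation gave 13647 of them 1 symbol, 402 several and 4719 none. For 13544 a RefSeq gene number matched (Release 6 plus ISO1 MT assembly, used for names and neighbours), which changed 0 symbols.

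The BG3 groups were compared with limma 3.58.1 in R 4.3.3 (lmFit, then eBayes with a mean-variance trend), two-sided, on the 6 BG3 arrays, with Benjamini-Hochberg adjustment over all probe sets and an adjusted p under 0.05 as the threshold. A rise or fall is a difference past that threshold, and SE values are limma's. In gene lists a gene with several probe sets was represented by the brightest on average. A summed level is log2 of the summed linear values of a list's measured genes. Tested on simulated data of the same size, the procedure found 26 of 100 probe sets altered by 1 log2 unit and 82 of 100 altered by 2 units, and 4.42% of its calls were unchanged probe sets. The altered probe sets all had a Mock RNAi mean above 6, and the noise was independent and normal. These rates therefore do not describe genes in the lower band. The titles call the replicates biological, with nothing on separate cultures, so p-values reflect only the spread seen here, which may be partly technical. No depth exists for arrays; their number limits the precision.

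The members and the gene lists were chosen with earlier results of these data known. Named genes were the members, their nearest measured neighbours, up to 4 called genes per direction in each list (or the 2 with the smallest p), called and defining markers, and the 3 genes most like each member. *Gli*, *M6*, *Nrx-IV*, *Cont*, *kune*, *pck*, *sinu*, *para*, *Irk2*, *Nhe1*, *kcc*, *zyd*, *Snap25*, *wrapper*, *alrm*, *moody*, *htl*, *eater*, *PPO1*, *srp*, *crq*, *sns*, *serp*, *btl*, *verm*, *Gat*, *List*, *Mgat1*, *nac* and *fdl* were added after their values were seen. Alternatives were the unit of the fit, a filter on low values, quantile normalization, median centring, no variance trend, a replicate block and leaving out each array. Scan dates, detection calls and sequences were not used here. The methods mention a larger number of wing disc replicates than the 3 analysed here.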

Additional observations from a re-analysis of the deposited data

How the results depend on the processing

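With single arrays left out, the differences ran from 0.92 to 1.23 for *nrv1*, from 1.26 to 1.78 for *nrv2* and from -2.31 to -1.38 for *nrv3*, and they were 1.07, 1.57 and -1.86 after quantile normalization. Among 1 probe set per named gene, the disc percentiles were 94.0 for *nrv1* and 93.1 for *nrv2*; leaving out single disc arrays gave 94.4 to 95.1 and 93.7 to 94.5. The count of called probe sets fell from 676 to between 427 and 648 when 1 array was left out, and that of lower calls from 222 to between 105 and 190, the total being lowest without Mock RNAi replicate 3; lower calls numbered 111 with Mock RNAi replicate 2 left out, 105 with Mock RNAi replicate 3 and 126 with Ph RNAi replicate 3. For ion channels and cotransporters, lower calls were 0 after quantile normalization and with a replicate block and 0 to 1 with arrays left out, and higher calls were 1 with a replicate block and 0 to 1 with arrays left out. Among septate junction genes, higher calls numbered 5 with 1 probe set per named gene, 6 with a replicate block and 3 to 4 with arrays left out. The difference of *hdly* ran from -0.15 to 0.14 and that of *Calx* from -0.13 to 0.043 with arrays left out, changing sign for *hdly* without replicate 2 of Mock RNAi (-0.15) or of Ph RNAi (-0.09), and for *Calx* without replicate 2 of Mock RNAi (0.0011) or replicate 3 of Ph RNAi (0.043). The cause was not tested, though each such fit has fewer arrays.

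Deviations of arrays with the same replicate number correlated at 0.15, 0.14 and -0.15, and those with different numbers at -0.20 to 0.16. Pairing by number was thus not evident, though so few values cannot settle it. With a replicate block 918 probe sets were called, *Irk1* missed the threshold (adjusted p = 0.0548), and the member differences were by construction the same, with SE values of 0.149, 0.197 and 0.348. Signals near background limit *nrv3*, *ine* and most channel genes. They also limit the size of rises that begin in the lower band, such as those of *He*, *twi*, *vvl* and *nub*.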
